A study of Homo sapiens with 12 samples.

Results

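Transcript levels of 10 glutathione S-transferase genes, GSTM1, GSTM2, GSTM3, GSTM4, GSTP1, GSTA4, GSTO1, GSTK1, MGST1 and MGST3, were described in RNA sequencing counts of ovarian cancer cells. They were chosen by gene symbol from the 46350 named genes of the count files, and each symbol matched 1 gene. The 12 libraries form 4 groups of 3: untreated SKOV3 cells, SKOV3 cells given paeonol (PAE, a plant phenol), untreated SKOV3/DDP cells, and SKOV3/DDP cells given PAE. SKOV3 is an established human epithelial ovarian cancer line that the labels call cisplatin-sensitive. The labels call SKOV3/DDP cisplatin-resistant, and the study's methods describe it as a derivative of SKOV3. No dose, treatment time or preparation batch of PAE is in the labels, and nothing states that replicates came from separate cultures, so p-values measure the spread between these libraries, which may be technical.

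Glutathione S-transferases join the tripeptide glutathione to reactive or foreign compounds, which makes them more soluble and easier to pump out of the cell. The soluble enzymes fall into classes, of which mu (GSTM), pi (GSTP), alpha (GSTA), omega (GSTO) and kappa (GSTK, in mitochondria and peroxisomes) are represented here, while MGST1 and MGST3 belong to a separate family of membrane proteins. The family is known in ovarian cancer for its link with drug resistance, and GSTM1 is known as a gene that many people lack.

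Total counts ranged from 14610008 to 18263479 per library. Values are CPM, read counts divided by the TMM-scaled library size in the usual unit, and groups were compared with edgeR at an adjusted p under 0.05 over the 17133 genes that passed its filter on low counts. The 3 untreated SKOV3 libraries stood apart. Their gene levels, each taken relative to that gene's mean over the 12 libraries, rose with GC content. The Spearman correlation was 0.761 to 0.796 over 10455 genes, against −0.686 to −0.461 in the other 9. As levels were centred on this mean, the negative values do not show a separate GC trend in the other 9. TMM factors were 0.644 to 0.674 in untreated SKOV3 against 0.975 to 1.23. All 3 carried this trend, so in any comparison that uses untreated SKOV3 the trend and the group cannot be told apart. The comparison of the 2 lines with PAE contrasts none of these libraries, but they share in the scaling and the estimate of spread of the joint fit. Values with a smooth GC and length trend removed from every library are given beside the differences of the members between the lines. Mitochondrial genes held 1.29% to 2.44% of the counts in SKOV3 libraries and 3.93% to 11.2% in SKOV3/DDP libraries. Some of the defining markers also differed between the lines. The 6 epithelial markers summed to at least 2337 CPM in every library. In untreated SKOV3 and SKOV3/DDP, mean levels were high in both for KRT8 (3311 and 5279 CPM) and KRT18 (1498 and 4190 CPM). The lines differed in EPCAM (1.26 and 288.6 CPM), CDH1 (7.63 and 442.1 CPM), KRT7 (3607 and 1.22 CPM) and KRT19 (7.66 and 1349 CPM). The 8 intestinal markers summed to at most 0.755 CPM in SKOV3 libraries. They summed to between 499.7 and 552.9 CPM in untreated SKOV3/DDP and between 159.7 and 238.5 CPM in SKOV3/DDP with PAE. In untreated SKOV3/DDP this came mostly from CDH17 (mean of 339.4 CPM) and CDX2 (163.4 CPM). There 5 of the 8 averaged 1 CPM or more, and GPA33 (0.926 CPM), KRT20 (0.209 CPM) and MUC2 (0.125 CPM) did not. The 8 ovarian markers summed to 103.7 to 509.8 CPM in SKOV3 libraries and 308.3 to 551.1 CPM in SKOV3/DDP libraries, in the untreated groups mostly from MSLN and ERBB2. Of the 5 tested genes of this list, 2 were higher in untreated SKOV3/DDP and 3 were lower. The higher ones were FOLR1 (mean of 36.0 CPM, against 0.118 CPM in untreated SKOV3) and MSLN (388.4 against 148.8 CPM). The lower ones were PAX8 (4.13 against 29.7 CPM), MUC16 (0.39 against 2.09 CPM) and ERBB2 (96.5 against 306.5 CPM). SOX17 had no count in any library. Markers of fibroblasts and endothelium summed to at most 30.2 CPM, those of leukocytes to at most 72.5 CPM in SKOV3 libraries and 4.16 CPM in SKOV3/DDP libraries. Their part in the differences described here was not tested. Whether the 2 lines share their origin was not tested either, so each difference between the lines is one between the libraries as labelled, and cannot be told apart from a difference of cell identity.

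Of the 10 genes, 9 passed the filter on low counts and GSTM1 did not. Between the untreated lines, 4 of the 9 were higher in SKOV3/DDP (GSTM2, GSTM3, GSTM4 and GSTA4) and 5 were lower (GSTP1, GSTO1, GSTK1, MGST1 and MGST3), where 81.8% of all tested genes passed the same threshold, 45.8% as higher and 36.0% as lower. With PAE in both lines, 3 were higher (GSTM2, GSTM3, GSTM4), 3 were lower (GSTO1, GSTK1, MGST1) and 3 did not pass, against 54.5% of all tested genes that passed, 27.5% as higher and 27.1% as lower. With such shares over all genes, the number of members that passed is no result about them, and their levels and sizes are given gene by gene.

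**Figure D1:**
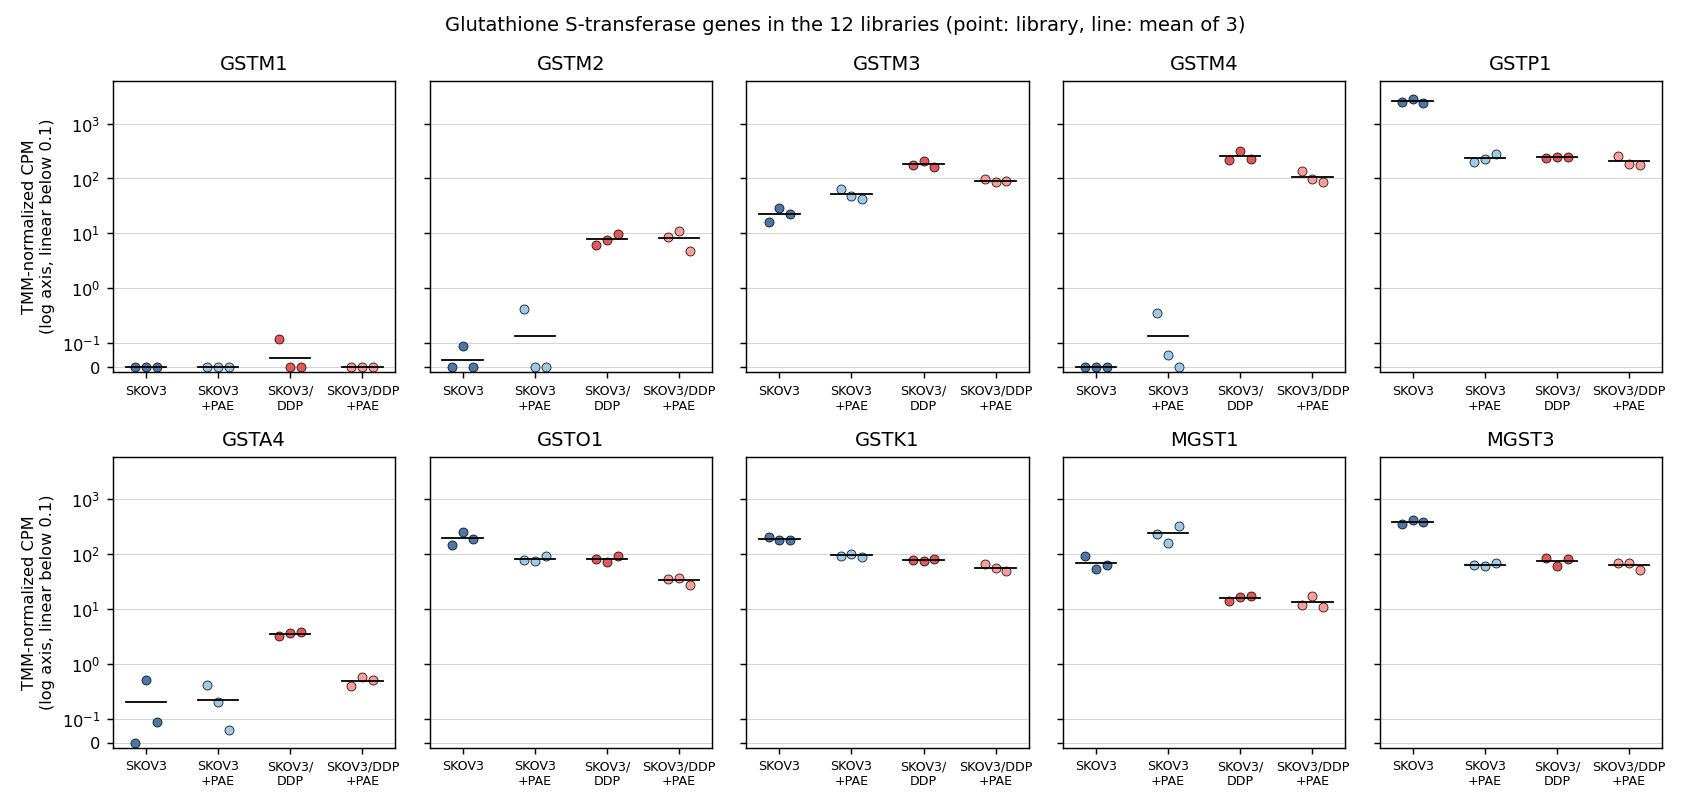
Each panel plots the CPM of 1 gene (vertical axis, logarithmic, linear below 0.1) in the 12 libraries by group, with a point per library and a line at the mean of 3. GSTM2 and GSTM4 lie at or near 0 in all 6 SKOV3 libraries and at 4.84 CPM or more in all 6 SKOV3/DDP libraries, and GSTP1 is highest in the 3 untreated SKOV3 libraries.

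Of the 9 tested genes, GSTM4 and GSTM2 of the mu class differed most in fold between the untreated lines. The mu genes lie side by side on chromosome 1 (GRCh38) in the order GSTM4, GSTM2, GSTM1, GSTM5 and GSTM3 over 84963 bases. GSTM4 (Gene ID 2948, chr1:109656076-109665497, plus strand), a cytosolic mu enzyme, had no count in any of the 3 untreated SKOV3 libraries. It measured 215.5, 321.8 and 230.6 CPM in untreated SKOV3/DDP. With PAE it had 0.349, 0.0508 and 0 CPM in SKOV3 (6, 1 and 0 counts) and 136.1, 98.5 and 85.0 CPM in SKOV3/DDP. Every SKOV3/DDP library was far above every SKOV3 library. Set against a floor of 3 counts over the untreated SKOV3 group (0.0862 CPM), GSTM4 was at least 2953-fold higher in untreated SKOV3/DDP (mean 256.0 ± 57.5 CPM, SD, n = 3; edgeR adjusted p of 2.690e-09). With PAE the log2 fold change between the lines was 9.64 (SE 0.56, edgeR adjusted p of 1.727e-08), and 9.82 with the GC and length trend removed. It was 11.63 without SKOV3 with PAE replicate 1, a fitted value that then rests on 1 count. Floors and counting intervals cover counting error only.

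GSTM2 (Gene ID 2946, chr1:109668057-109683997, plus strand), the muscle-type mu enzyme, followed the same split at a lower level. Its CPM were 0, 0.0852 and 0 in untreated SKOV3 (1 count in all), and 6.17, 7.51 and 9.61 in untreated SKOV3/DDP. With PAE they were 0.407, 0 and 0 in SKOV3, from 7 counts that all fell in replicate 1, and 8.44, 11.1 and 4.84 in SKOV3/DDP. The lines did not overlap in either state. The ratio between the untreated lines was 269.2, with a 95% counting interval of 48.0 to 10662 because it rests on 1 count in SKOV3 (edgeR adjusted p of 4.525e-06). With PAE the log2 fold change was 5.91 (SE 0.79, edgeR adjusted p of 1.747e-05) and still passed without SKOV3 with PAE replicate 1, which leaves that group at 0 counts and so gives no size. Both genes lay above the middle 50% of tested genes of like GC content between the untreated lines, whose upper quartile of log2 fold changes was 3.55 for GSTM2 (43.4% GC) and 0.84 for GSTM4 (53.4% GC). With the GC and length trend removed, the log2 fold change of GSTM2 was 6.58 untreated and 6.11 with PAE.

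GSTM3 (Gene ID 2947, chr1:109733937-109741038), the mu gene on the minus strand, was expressed in both lines. It measured 16.1, 28.5 and 22.6 CPM in untreated SKOV3 and 173.1, 205.4 and 163.3 CPM in untreated SKOV3/DDP. With PAE it was at 63.8, 47.7 and 41.6 CPM in SKOV3 and at 98.3, 87.8 and 88.0 CPM in SKOV3/DDP. The 4 groups did not overlap, and their order was untreated SKOV3, SKOV3 with PAE, SKOV3/DDP with PAE, untreated SKOV3/DDP. The untreated lines differed by 3.01 on the log2 scale (SE 0.25, edgeR adjusted p of 3.364e-08), and by 1.34 with the GC and length trend removed (adjusted p of 7.783e-04). With PAE the difference was 0.84 (SE 0.23, edgeR adjusted p of 0.00656), and 0.88 with the trend removed.

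GSTM1 (Gene ID 2944, chr1:109687817-109693745, plus strand) and its neighbour GSTM5 were not detectable at this depth in 11 of the 12 libraries. GSTM1 had 2 counts in all, both in untreated SKOV3/DDP replicate 1 (0.115 CPM), and GSTM5 had 1 count, in untreated SKOV3/DDP replicate 2 (0.0631 CPM). A count of 0 over a group allows up to 0.0862 CPM in untreated SKOV3 and in the groups with PAE up to 0.0537 CPM for SKOV3 and 0.0501 CPM for SKOV3/DDP. The mu genes resemble each other, and of all 100-base stretches of GSTM1 transcripts in GENCODE 29, 29.1% also occur in another gene, mostly in GSTM2. The shares were 12.9% for GSTM2, 6.51% for GSTM4 and 0 for GSTM3, so a part of the reads of GSTM1, GSTM2 and GSTM4 could have been assigned to either or dropped. How the counting treated such reads is not given in the sources used here.

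The 250 bases before the start of the 3 neighbours GSTM4, GSTM2 and GSTM1 are shown because 2 of these genes separate the lines while the third had 2 counts in all (RefSeq, GRCh38.p14, plus strand, chr1:109655849-109656098, chr1:109667807-109668056 and chr1:109687567-109687816). Capitals mark an antioxidant response element core, TGACNNNGC, searched on both strands.
GSTM4: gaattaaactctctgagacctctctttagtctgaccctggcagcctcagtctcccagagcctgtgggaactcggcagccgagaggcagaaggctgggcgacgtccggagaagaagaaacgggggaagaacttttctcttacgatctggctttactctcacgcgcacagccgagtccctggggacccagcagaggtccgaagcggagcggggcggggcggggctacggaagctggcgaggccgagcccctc
GSTM2: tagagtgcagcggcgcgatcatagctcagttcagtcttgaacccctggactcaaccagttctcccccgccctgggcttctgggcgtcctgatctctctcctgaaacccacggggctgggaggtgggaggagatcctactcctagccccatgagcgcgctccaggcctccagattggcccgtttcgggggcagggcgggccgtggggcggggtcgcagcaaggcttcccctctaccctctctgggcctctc
GSTM1: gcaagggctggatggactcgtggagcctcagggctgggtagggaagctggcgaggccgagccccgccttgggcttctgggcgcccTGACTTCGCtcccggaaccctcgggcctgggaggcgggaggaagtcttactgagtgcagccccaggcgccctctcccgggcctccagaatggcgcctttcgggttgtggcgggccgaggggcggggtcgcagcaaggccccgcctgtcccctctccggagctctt
The core occurs in GSTM1, with its first letter at position −165 from the start, and neither in GSTM4 nor in GSTM2 in this window. All 3 hold GC boxes (GGGCGG on either strand), 2 in GSTM4, 3 in GSTM2 and 1 in GSTM1, which 42.6% of 35116 promoters of this length also do. The table's start of GSTM4 (109656099) lies within the deposited gene.

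GSTP1 (Gene ID 2950, chr11:67583812-67586653, plus strand), the pi enzyme that is abundant in many tumours, was the most abundant of the 10 per kilobase in every group. It measured 2536, 2842 and 2358 CPM in untreated SKOV3. The other 3 groups lay together, at 199.3, 226.4 and 275.2 CPM in SKOV3 with PAE, 235.2, 243.7 and 245.0 CPM in untreated SKOV3/DDP, and 252.0, 186.5 and 175.1 CPM in SKOV3/DDP with PAE. These 9 libraries overlapped between groups, and the 3 untreated SKOV3 libraries were all higher. Untreated SKOV3/DDP was 10.7-fold lower than untreated SKOV3 (log2 fold change −3.42, SE 0.22, edgeR adjusted p of 3.780e-09). With the GC and length trend removed the log2 fold change was 0.01 (adjusted p of 0.983), and with PAE in both lines it was −0.19 (SE 0.20, adjusted p of 0.447). GSTP1 has the highest GC content of the 10, at 62.5%. The middle 50% of tested genes of like GC content had log2 fold changes between −3.54 and −1.05, a range that holds the value of GSTP1. Their median was −2.34. GSTP1 is also the shortest of the 10, at 741 bases. The parts of GC content and of length in the trend removed from it were not tested separately.

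The 250 bases before GSTP1 are shown for the element they carry (RefSeq, GRCh38.p14, plus strand, chr11:67583562-67583811). Capitals mark an antioxidant response element core that overlaps an AP-1 motif, TGACTCA, with its first letter at position −66 from the start.
GSTP1: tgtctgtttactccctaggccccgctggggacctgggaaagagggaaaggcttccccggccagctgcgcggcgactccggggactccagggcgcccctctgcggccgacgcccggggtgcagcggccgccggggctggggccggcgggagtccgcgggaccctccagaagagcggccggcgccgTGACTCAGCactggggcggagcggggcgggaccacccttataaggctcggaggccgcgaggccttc
The core also occurs in the windows of GSTA4 (first letter at −9) and GSTO1 (at −226 and −161), and in none of those of GSTM2, GSTM3, GSTM4, GSTK1, MGST1 (3 starts) and MGST3. The starts used for GSTA4 (52995284) and GSTO1 (104254892) lie within the deposited genes, and so does the whole window of GSTO1. The same holds for the starts of MGST1 at 16347645 and 16347778. All 10 genes had an entry in this table, and among its 35116 promoters 10.9% hold the core and 4.2% the AP-1 motif. GSTP1 had 28 CpG dinucleotides in this window and GSTM3 had 1, against a median of 11 over all promoters.

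MGST1 (Gene ID 4257, chr12:16347115-16377192, plus strand), a microsomal transferase that also reduces lipid peroxides, separated the lines in the opposite direction to GSTM4. It measured 92.3, 53.5 and 63.3 CPM in untreated SKOV3 and 13.8, 16.2 and 16.9 CPM in untreated SKOV3/DDP. With PAE it measured 237.6, 162.2 and 325.0 CPM in SKOV3 and 11.6, 17.5 and 10.9 CPM in SKOV3/DDP. Each SKOV3 library was above each SKOV3/DDP library, and SKOV3 with PAE was the highest group. SKOV3/DDP was 4.46-fold lower untreated (log2 fold change −2.16, SE 0.29, edgeR adjusted p of 6.472e-06) and 18.1-fold lower with PAE (log2 fold change −4.18, SE 0.32, edgeR adjusted p of 5.160e-08). With the trend removed the values were −4.19 and −4.00, so the untreated difference depended on it in size and not in direction.

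MGST3 (Gene ID 4259, chr1:165631234-165656136, plus strand), a microsomal enzyme with glutathione transferase and peroxidase activity, was high only in the untreated SKOV3 group. It measured 360.7, 426.3 and 393.1 CPM there, 62.3, 60.4 and 67.8 CPM in SKOV3 with PAE, 84.8, 59.7 and 80.1 CPM in untreated SKOV3/DDP, and 69.6, 70.2 and 51.4 CPM in SKOV3/DDP with PAE. As for GSTP1, the other 9 libraries overlapped. The difference between the untreated lines was −2.39 on the log2 scale (SE 0.21, edgeR adjusted p of 6.124e-08), and with PAE it was 0.01 (SE 0.20, adjusted p of 0.982). Unlike that of GSTP1, it was larger with the trend removed, at −3.14 (adjusted p of 7.288e-09), while with PAE it was 0.23 (adjusted p of 0.264). The GC content of MGST3 is 44.0%.

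GSTO1 (Gene ID 9446, chr10:104254173-104267455, plus strand), the omega enzyme, was lower in SKOV3/DDP in both states. It measured 149.2, 250.1 and 190.6 CPM in untreated SKOV3, 81.8, 72.0 and 93.8 CPM in untreated SKOV3/DDP, 79.7, 76.0 and 91.0 CPM in SKOV3 with PAE, and 34.9, 36.9 and 27.5 CPM in SKOV3/DDP with PAE. SKOV3/DDP with PAE was below all other libraries and untreated SKOV3 above them, while the remaining groups overlapped. The log2 fold change between the lines was −1.25 untreated (SE 0.22, edgeR adjusted p of 9.377e-05) and −1.31 with PAE (SE 0.22, edgeR adjusted p of 1.664e-04). With the trend removed it was −1.35 and −1.11.

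GSTK1 (Gene ID 373156, chr7:143263441-143269115, plus strand), the kappa enzyme, was also lower in SKOV3/DDP in both states. It measured 205.4, 183.3 and 182.8 CPM in untreated SKOV3, 93.8, 102.4 and 90.6 CPM in SKOV3 with PAE, 79.5, 75.2 and 82.4 CPM in untreated SKOV3/DDP, and 66.0, 55.6 and 48.4 CPM in SKOV3/DDP with PAE. No 2 of the 4 groups overlapped. The log2 fold change between the lines was −1.27 untreated (SE 0.18, edgeR adjusted p of 1.240e-05) and −0.75 with PAE (SE 0.18, edgeR adjusted p of 0.00269). With the trend removed it was −1.06 and −0.56. The antisense gene TMEM139-AS1 covers GSTK1 and had at most 7 counts in a library, and whether counting used strand is not given in the sources used here.

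GSTA4 (Gene ID 2941, chr6:52977952-52995332, minus strand), the alpha enzyme that acts on the lipid peroxidation product 4-hydroxynonenal, was low throughout. It measured 0, 0.511 and 0.0848 CPM in untreated SKOV3, from 0, 6 and 1 counts, 0.407, 0.203 and 0.0526 CPM in SKOV3 with PAE, 3.23, 3.60 and 3.80 CPM in untreated SKOV3/DDP, and 0.392, 0.564 and 0.495 CPM in SKOV3/DDP with PAE. Untreated SKOV3/DDP stood above the other 9 libraries. The untreated lines differed by 4.09 on the log2 scale (SE 0.75, edgeR adjusted p of 1.268e-04), by 2.44 with the trend removed, and by 6.13 without SKOV3 replicate 2, which holds 6 of the 7 counts there. The lines with PAE differed by 1.13 (SE 0.74, edgeR adjusted p of 0.21), and by 1.37 with the trend removed (adjusted p of 0.125).

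**Figure D2:**
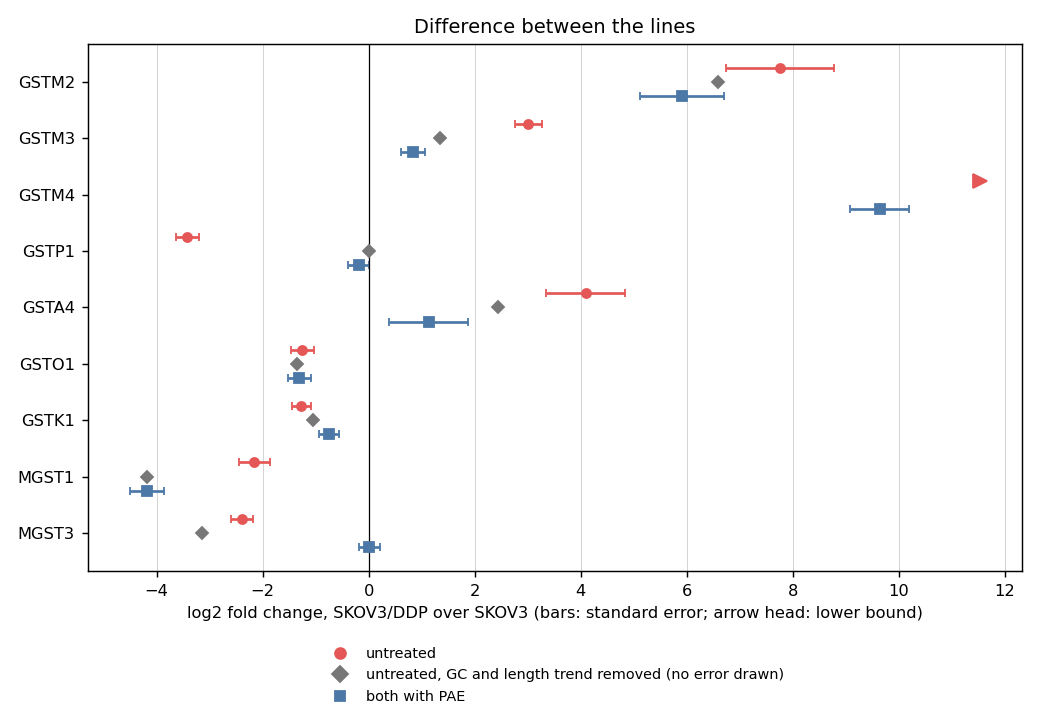
The horizontal axis gives the log2 fold change of SKOV3/DDP over SKOV3 for 9 genes: untreated (circles), untreated with the GC and length trend removed (diamonds), and with PAE (squares), with bars of 1 standard error where drawn and an arrow head for the lower bound of GSTM4, for which no trend-removed value is drawn. GSTM2 and GSTM4 stay far to the right and MGST1 to the left in every setting drawn for them, while GSTP1 moves from −3.42 to 0.01.

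**Figure D3:**
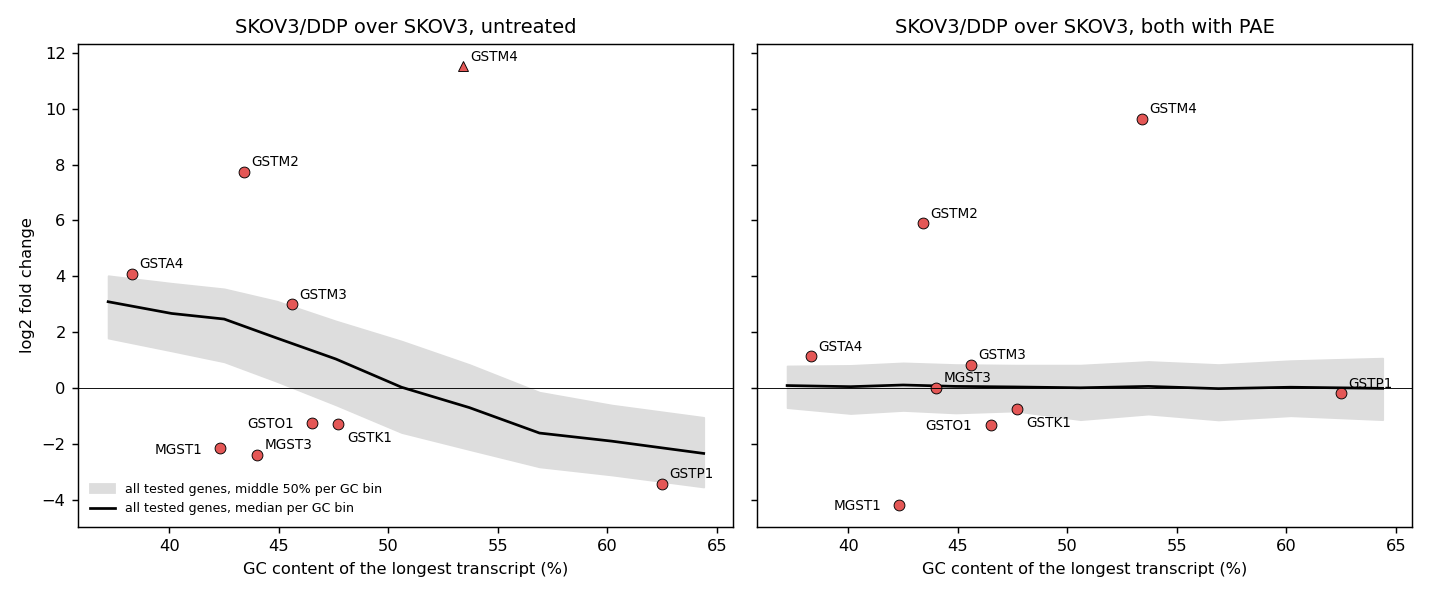
Each panel sets the log2 fold change of SKOV3/DDP over SKOV3 (vertical axis) against the GC content of the longest transcript (horizontal axis, percent), with a line at the median of all tested genes in 10 GC bins, grey for their middle 50%, and points for the 9 genes (the triangle is the lower bound of GSTM4). Untreated, the median of all genes goes from 3.09 in the lowest bin to −2.34 in the highest, and with PAE it stays between −0.02 and 0.11.

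All 9 tested members had untreated groups that did not overlap, against 83.2% of all tested genes, and 6 did with PAE, against 61.2%. An exact permutation test of 3 libraries against 3 gave its smallest possible p of 0.1 for each of these, so this design cannot go below it. The study's methods name limma with p under 0.05 and a log2 fold change beyond 2 in either direction, and mention no adjustment. These thresholds were set here on the unadjusted p of the edgeR fit. By them 4 members were higher and 3 lower between the untreated lines, and 57.3% of all tested genes met them. The members' median log2 fold change was −1.25 untreated, where that of all tested genes was 0.54, and 0.01 with PAE, where it was 0.06. With the GC and length trend removed, the medians of members and all genes were 0.01 and 0.08 untreated, and 0.23 and 0.10 with PAE. With counts scaled by library size only, the median of all tested genes between the untreated lines was 1.23 and the direction of each of the 9 members held, with GSTO1 at −0.56 and GSTK1 at −0.58. Fewer cells of a type and less RNA per cell cannot be told apart in such bulk libraries.

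Levels of different members were compared per kilobase of the deposited gene length (mean CPM per kilobase, with the GC and length trend not removed). In untreated SKOV3 the order was GSTP1 (3480), MGST3 (333), GSTO1 (172.5), GSTK1 (159), MGST1 (21.4) and GSTM3 (5.43), and only GSTO1 and GSTK1 overlapped. In untreated SKOV3/DDP the order began with GSTP1 (326) and GSTM4 (106), followed by GSTO1, GSTK1 and MGST3, which overlapped their neighbours between 63.3 and 72.4, and GSTM3 (43.8). Below these, MGST1 (4.80) and GSTM2 (3.92) overlapped, and GSTA4 was at 2.48. GSTM4, second in untreated SKOV3/DDP, had no count in untreated SKOV3. With PAE, GSTK1, MGST1 and GSTO1 overlapped their neighbours in SKOV3 (79.7, 74.1 and 72.1), as did MGST3, GSTK1 and GSTM4 in SKOV3/DDP (53.9, 47.2 and 44.2).

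The 10 genes summed to 4171 ± 378.5 CPM per kilobase in untreated SKOV3 and to 688.5 ± 17.5 in untreated SKOV3/DDP (SD, n = 3), but with PAE to 607.6 ± 75 and 481.1 ± 84.5. GSTP1 held a mean of 83.4% of the sum in untreated SKOV3, 47.3% in untreated SKOV3/DDP, and with PAE 51.8% in SKOV3 and 57.2% in SKOV3/DDP. The GC and length trend was not removed from these sums and shares. With it removed, the log2 fold change of GSTP1 between the untreated lines was 0.01 (edgeR adjusted p of 0.983). GSTM4 held 15.4% in untreated SKOV3/DDP and 9.12% with PAE, but 0 and 0.00987% in the SKOV3 groups. MGST1 held a mean of 12.1% in SKOV3 with PAE and of 0.52%, 0.696% and 0.867% in untreated SKOV3, untreated SKOV3/DDP and SKOV3/DDP with PAE.

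**Figure D4:**
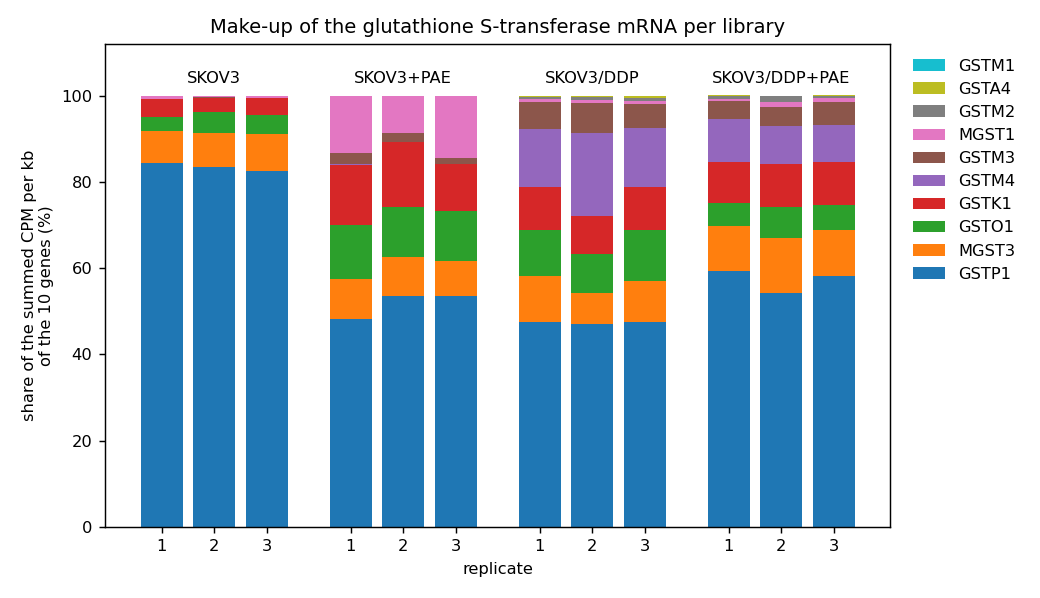
Each bar is 1 library and splits the summed CPM per kilobase of the 10 genes into the share of each (vertical axis, percent). GSTP1 takes 82.5% to 84.3% in the untreated SKOV3 libraries, GSTM4 takes 8.68% or more in every SKOV3/DDP library, and MGST1 takes 8.73% to 14.4% in SKOV3 with PAE. The GC and length trend was not removed from these values.

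The comparison of PAE in SKOV3/DDP asks how the agent changed the resistant line. It contrasts no untreated SKOV3 library, though these share in the scaling and the estimate of spread of the joint fit. None of the 9 rose and 4 fell (GSTM3, GSTM4, GSTA4 and GSTO1), where 26.4% of all tested genes passed and 14.7% passed as lower. The groups of 5 members did not overlap, GSTK1 being the fifth, against 45.1% of all tested genes. From the levels above, GSTO1 fell by 1.32 on the log2 scale (SE 0.22, edgeR adjusted p of 9.048e-04) and GSTM3 by 0.98 (SE 0.23, adjusted p of 0.00705). GSTA4 fell by 2.85 (SE 0.64, edgeR adjusted p of 0.00526), from a mean of 3.54 ± 0.287 to 0.484 ± 0.0863 CPM (SD, n = 3). GSTM4 fell by 1.26 (SE 0.34, edgeR adjusted p of 0.0166), a call that was lost without SKOV3/DDP with PAE replicate 2 (log2 fold change −1.17, adjusted p of 0.0652) or replicate 3 (−1.08, adjusted p of 0.0653). The changes of GSTM2 (0.07, SE 0.56), GSTP1 (−0.24, SE 0.20), MGST1 (−0.23, SE 0.29), MGST3 (−0.23, SE 0.20) and GSTK1 (−0.48, SE 0.18) did not pass, and that of GSTK1 passed with DESeq2 (adjusted p of 0.0296), with limma-voom (0.0407) and with the GC and length trend removed (−0.46, adjusted p of 0.03). Intestinal markers were also lower with PAE in SKOV3/DDP, 5 of 5 tested, and epithelial markers in 4 of 6, and their part in the values of the members was not tested.

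In SKOV3, 2 of the 9 rose with PAE (GSTM3 and MGST1) and 4 fell (GSTP1, GSTO1, GSTK1 and MGST3), where 75.3% of all tested genes passed, 42.6% as higher and 32.7% as lower. The groups of these 6 did not overlap, against 77.4% of all tested genes. GSTP1 fell by 3.46 on the log2 scale (SE 0.22, edgeR adjusted p of 1.206e-08), but with the GC and length trend removed the value was 0.16 (adjusted p of 0.545). MGST1 rose by 1.79 (SE 0.29, edgeR adjusted p of 3.850e-05) and GSTM3 by 1.19 (SE 0.24, adjusted p of 3.075e-04), and with the trend removed both turned, to −0.51 (adjusted p of 0.079) and −0.56 (adjusted p of 0.11). MGST3 fell by 2.63 (SE 0.21, edgeR adjusted p of 4.086e-08) and by 3.63 with the trend removed. GSTO1 fell by 1.26 (SE 0.22, edgeR adjusted p of 1.016e-04) and GSTK1 by 0.99 (SE 0.18, adjusted p of 1.467e-04). These last 2 held with the trend removed (−1.55 and −0.96), but did not pass with counts scaled by library size only (−0.37 and −0.11, adjusted p of 0.163 and 0.628), a scaling under which the median of all genes was 1.36 in place of 0.48. GSTM4, with 0 counts untreated and 7 with PAE, 6 of these in replicate 1, did not pass (edgeR adjusted p of 0.0608). GSTM2 and GSTA4 did not pass either (edgeR adjusted p of 0.274 and 0.928).

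GSTO1 was the member that passed as lower with PAE in both lines without turning when the trend was removed, and the difference of its PAE effect between the lines was −0.06 (SE 0.31, edgeR adjusted p of 0.907). For 6 members that difference passed, 2 as higher and 4 as lower, where 62.9% of all tested genes did, 25.5% as higher and 37.4% as lower. The difference uses the same libraries as the PAE comparison of each line, and 4 of the 6 (GSTM3, GSTP1, GSTA4 and MGST1) did not pass with the trend removed. That of GSTM4 has no size, because untreated SKOV3 had no count.

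**Figure D5:**
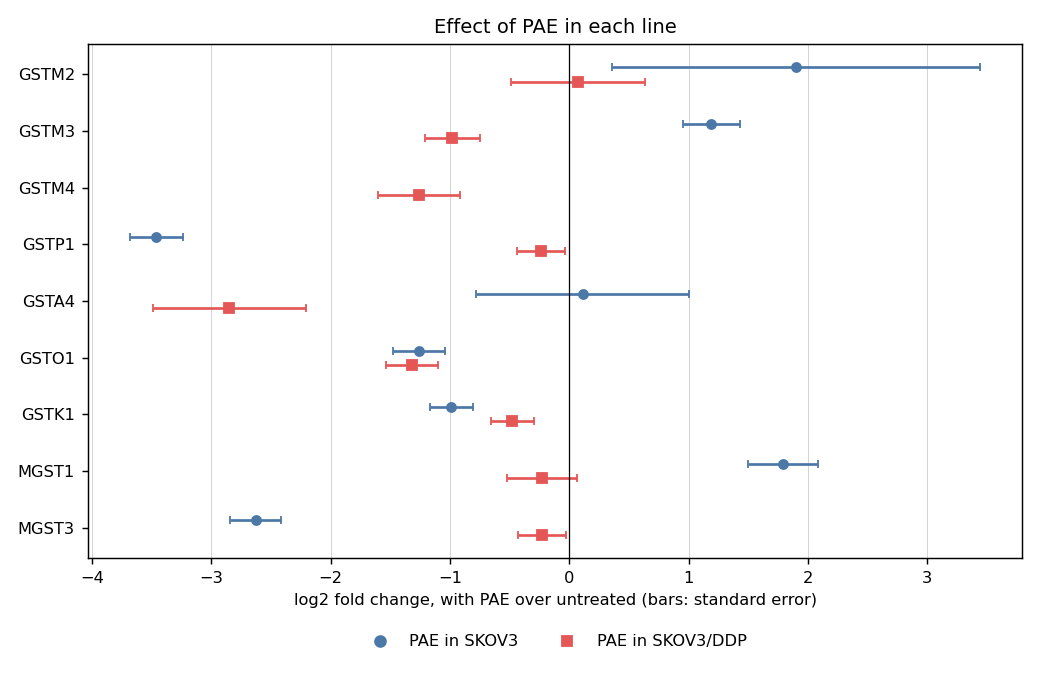
The horizontal axis gives the log2 fold change of PAE over untreated cells in SKOV3 (circles) and SKOV3/DDP (squares), with bars of 1 standard error; GSTM4 in SKOV3 is left out because the untreated group had no count. GSTO1 lies at −1.26 and −1.32 in the lines, GSTP1 at −3.46 in SKOV3 and −0.24 in SKOV3/DDP, and with the GC and length trend removed (not drawn) GSTP1 was at 0.16 and 0.09.

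Other genes of the family and of glutathione metabolism were read from lists chosen with earlier results of these data known. Of 18 other transferase and related membrane genes, 9 were tested, with 3 higher and 4 lower between the untreated lines and 1 higher and 3 lower with PAE. Over all tested genes, as given above, 81.8% passed untreated (45.8% higher, 36.0% lower) and 54.5% with PAE, so the counts of this list and of those that follow are no result about the lists. GSTT1, the theta enzyme, was split like GSTM4. Its deposited locus is on a scaffold and not a numbered chromosome, and its GC content was not known, so it has no trend-removed value. GSTT1 had no count in any of the 6 SKOV3 libraries, 23.1, 25.3 and 25.7 CPM in untreated SKOV3/DDP, and 26.2, 24.8 and 24.9 CPM in SKOV3/DDP with PAE. All 6 SKOV3/DDP libraries lay close together. Set against a floor of 3 counts over the SKOV3 group, the SKOV3/DDP group was at least 286.4-fold higher untreated and at least 471.8-fold with PAE. PTGES, the membrane-bound prostaglandin E synthase related to MGST1, was lower in SKOV3/DDP by 6.42 on the log2 scale untreated (SE 0.32; −4.30 with the trend removed) and by 5.03 with PAE (SE 0.30). GSTZ1, the zeta enzyme of tyrosine breakdown, and MGST2 were lower untreated (−2.12 and −1.07, or −1.60 and −1.89 with the trend removed) and did not pass with PAE (0.36 and 0.25). GSTCD was higher untreated (2.99) but at 0.42 with the trend removed, and GSTO2, the other omega enzyme, did not pass (−0.16, SE 0.20) but was lower with the trend removed (−2.13, edgeR adjusted p of 9.772e-06).

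Among 18 tested genes of glutathione synthesis and supply, 11 were higher and 5 lower between the untreated lines, and 8 and 5 with PAE. CBS, which feeds homocysteine into cysteine synthesis, had no count in any SKOV3/DDP library, against 66.2, 107.9 and 62.3 CPM in untreated SKOV3 and 31.3, 32.7 and 13.2 CPM with PAE. It was at least 1302.5-fold lower in SKOV3/DDP untreated and at least 511.0-fold lower with PAE. GCLC, the catalytic subunit of the rate-limiting ligase of glutathione synthesis, measured 8.07, 3.41 and 3.14 CPM in untreated SKOV3 and 46.7, 300.2 and 45.3 CPM in untreated SKOV3/DDP. In SKOV3/DDP replicate 2 was far above the others, as it was for the cystine carrier SLC7A11 (57.0, 901.9 and 70.9 CPM), the ligase's modifier subunit GCLM (54.6, 257.1 and 55.2 CPM) and NFE2L2, which encodes the stress factor NRF2 (112.5, 320.5 and 109.6 CPM). In the same library GSTM4 measured 321.8 CPM, against 215.5 and 230.6 in the others, and GSTP1 243.7 CPM, against 235.2 and 245.0. Between the untreated lines the log2 fold changes were 4.75 for GCLC, 5.43 for SLC7A11, 2.72 for GCLM, 2.37 for NFE2L2 and 3.45 for CTH, which makes cysteine from cystathionine. Without SKOV3/DDP replicate 2 they were smaller for the first 4, at 3.25, 3.02, 1.57 and 1.68, and all still passed. With the trend removed the values were 2.94 for GCLC, 2.20 for SLC7A11, 1.25 for CTH and 0.93 for NFE2L2, and GCLM turned to −0.34 (adjusted p of 0.538). With PAE none of the 5 passed in the comparison of the lines, and with the trend also removed GCLC did (1.51, adjusted p of 0.036).

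Of 13 tested glutathione peroxidases and related thiol enzymes, 6 were higher and 7 lower untreated, and 4 and 4 with PAE. GPX3, the secreted peroxidase, was higher in SKOV3/DDP by 9.20 (SE 0.31) untreated, by 11.36 with the trend removed, and by 7.93 (SE 0.28) with PAE. GPX7 had no count in untreated SKOV3/DDP and was at least 379.8-fold lower there. ESD, which frees glutathione from S-formylglutathione, and GLO1, the glyoxalase, were higher untreated (4.93 and 4.74, or 2.36 and 2.83 with the trend removed). With PAE they were at 0.08 and 0.55, and GLO1 passed (edgeR adjusted p of 0.0352). That call was lost when any of 5 of the 6 libraries was left out (adjusted p up to 0.117). Of 8 tested export and mercapturate genes, 5 were higher untreated and none lower, among them the exporters ABCC4 (4.44) and ABCC5 (0.59), and with PAE 1 was higher (ABCC5, 0.81) and 1 lower. With the trend removed, ABCC4 was at 2.10 and ABCC5 at 0.01 (adjusted p of 0.987) untreated, and the calls of ABCC5 were lost in either state when 1 library was left out (highest adjusted p of 0.154 untreated and 0.0619 with PAE). Of 9 genes of NRF2 control, 3 were higher and 5 lower untreated, and 2 and 2 with PAE. KEAP1, which holds NRF2 down, was lower by 4.72 untreated and by 1.79 with PAE, and CUL3, its ligase partner, was higher by 4.43 and 1.51. BACH1 (3.27) and MAFK (−3.15), which bind the same DNA elements, passed untreated and not with PAE (0.03 and 0.73). With the trend removed the untreated values were −2.73 for KEAP1, 1.36 for CUL3, −1.21 for MAFK and 0.30 for BACH1, which then did not pass (adjusted p of 0.218), and MAFK passed with PAE (0.81, adjusted p of 0.00887).

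The 5 genes whose log2(CPM + 0.5) was most like that of GSTP1 over the 12 libraries were ERGIC3, LAMTOR4, ELOB, ARL6IP4 and MPDU1, with Pearson correlations of 0.997, 0.996, 0.996, 0.996 and 0.995. The 12 libraries form 4 groups and the pattern follows the untreated SKOV3 libraries, so these are descriptions. In all, 1135 of 17132 genes (6.63%) had a correlation over 0.95.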

How the data were processed

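Poly-T beads were used to select the RNA that was sequenced. Per the labels, the submitters' processing notes name HISAT2 2.0.5, StringTie 1.3.3b, DESeq2 and edgeR with no role or order, and the counting program, the reading of strand and the treatment of reads that match several genes are not given in the sources used here. The deposited values are raw read counts per gene, 1 file per library, with RefSeq gene models on GRCh38. Of 47219 loci, 869 without a gene name (0.126% to 0.678% of the counts) were left out. The members and the gene lists were chosen with earlier results of these data known.

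All 12 libraries entered 1 edgeR 4.0.16 quasi-likelihood fit (R 4.3.3, filterByExpr, TMM, 4 group means), with Benjamini-Hochberg adjustment over 17133 genes. Standard errors were obtained from each log2 fold change and the root of its F statistic. The GC and length trend was removed per library with splines of 5 degrees of freedom in genes whose log2 CPM averaged 2 or more, and GC content was known for 91.5% of the tested genes. DESeq2 1.42.0, limma-voom (limma 3.58.1), scaling by library size, no filter on low counts, a replicate block, a fit of only the groups compared and leaving out each library were tried as alternatives. From each list of other genes, up to 4 genes with the largest change between the untreated lines were named, besides GSTM5, GSTT1, GSTZ1, GSTO2, MGST2, GCLC, GCLM, NFE2L2 and KEAP1, which were named whatever their values. A gene of the export list that this rule would name is not reported here. The code was tested on simulated counts. Replicates of a group differed by more than counting noise (chi-square per degree of freedom of 16.6 to 101), so none was a copy of another library. Each was counted as a sample, although this spread cannot show whether replicates came from separate cultures. Transcript stretches were compared in GENCODE 29.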

Additional observations from a re-analysis of the deposited data

Results flagged for a closer look

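For 6 genes the log2 effect of PAE in SKOV3/DDP differed from that in SKOV3 by edgeR's interaction contrast: GSTM3 (−2.17, SE 0.33, adjusted p of 4.053e-05), GSTM4 (−5.42, SE 1.85, adjusted p of 0.0207), GSTP1 (3.23, SE 0.29, adjusted p of 5.039e-07), GSTA4 (−2.96, SE 1.09, adjusted p of 0.0274), MGST1 (−2.02, SE 0.40, adjusted p of 4.351e-04) and MGST3 (2.4, SE 0.29, adjusted p of 4.508e-06). The value of GSTM4 is a fitted one over untreated SKOV3, which had 0 counts, so it depends on the prior count and gives no size. Over all tested genes 62.9% passed, and the untreated SKOV3 libraries enter each value.

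With the GC and length trend removed, MGST3 passed (3.37, adjusted p of 8.660e-07), and GSTM3 (−0.46, adjusted p of 0.375), GSTP1 (−0.07, adjusted p of 0.898), GSTA4 (−1.07, adjusted p of 0.487) and MGST1 (0.19, adjusted p of 0.679) did not. The call of GSTM4 rests on 0 counts in untreated SKOV3 and 7 with PAE, and was lost (adjusted p of 0.188) without SKOV3 with PAE replicate 1, which holds 6 of the 7. That of GSTA4, with 7 counts in untreated SKOV3, lost its call without any of 5 libraries, the highest adjusted p being 0.141 without SKOV3 with PAE replicate 1.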

How the results depend on the processing

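Of 626 values of members under alternatives, 573 kept direction and side of the threshold, 32 changed sign, 9 gained and 12 lost a call. The number of members called stayed within 1.5 times its main value except for the difference of the PAE effect, where 2 members passed with the GC and length trend removed, against 6. Over all genes, that setting called 7692 in place of 12895 for PAE in SKOV3 and 6468 in place of 10778 for the difference. For PAE in SKOV3/DDP, leaving out untreated SKOV3/DDP replicate 1 or 3 gave 2815 or 2837 calls in place of 4526. The causes were not tested. Depth limits GSTM1, GSTM2, GSTM4 and GSTA4 in SKOV3.

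With the GC and length trend removed, values of opposite sign were −0.56 for GSTM3, 0.16 for GSTP1, −1.95 for GSTA4 and −0.51 for MGST1 (PAE in SKOV3), 0.01 for GSTP1 and −0.34 for GCLM (untreated lines), 0.09 for GSTP1 (PAE in SKOV3/DDP), and −0.07 for GSTP1, 0.24 for GSTO1 and 0.19 for MGST1 (difference). DESeq2 gave −0.16 for GSTA4 (PAE in SKOV3) and 0.21 for GSTO1 (difference). Scaling by library size gave −0.20 for GSTK1 (difference) and 0.52 for GSTO2 (untreated lines). Between the lines with PAE, MGST3 was −0.01 with limma-voom, −0.02 with library size, −0.02 with no filter on low counts and −0.06 with only the groups compared, CTH was 0.21 with limma-voom, and BACH1 −0.04 with only the groups compared.

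Leaving out 1 library turned the sign of GSTM2 (PAE in SKOV3, −2.28 to 4.21; PAE in SKOV3/DDP, −0.19 to 0.38; difference, −4.14 to 2.38), GSTA4 (PAE in SKOV3, −0.61 to 2.15) and GSTO1 (difference, −0.27 to 0.11), and with PAE in both lines of MGST3 (−0.07 to 0.14), CTH (−0.45 to 0.72), ESD (−0.04 to 0.29) and BACH1 (−0.23 to 0.22), none of which passed the test in the full fit.

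Replicate numbers did not pair the samples: same-numbered libraries had correlations of −0.13 to 0.105 over 18 pairs. With the replicate block, 9, 6, 4, 6 and 6 members passed for the untreated lines, PAE in SKOV3, PAE in SKOV3/DDP, the difference and the lines with PAE, as without it. The block turned GSTM2 for PAE in SKOV3/DDP to −0.03 and CTH between the lines with PAE to 0.11.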
